A study of Rattus norvegicus with 12 samples.

Results

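The miRNAs described here are rno-miR-1, rno-miR-133a, rno-miR-133b and rno-miR-206, the guide strands of the bicistronic myomiRs, taken by name from the array tables. They are 4 of the 677 rat miRNAs on the array, and all 4 were detected in all 12 muscles. RNA came from the soleus of male Sprague-Dawley offspring at 1 year of age, 6 born to control (C) dams and 6 to dams fed a high fat (HF) diet before mating and through pregnancy and lactation. All offspring ate standard chow after weaning, so both groups share the adult diet and differ in the diet of the mother. Each muscle was hybridised to 1 one-colour Agilent rat miRNA array from 100 ng of total RNA, and the rats are named here by their labels. The study's methods give fewer HF rats than the labels, and the legend of its phenotype table gives fewer C rats. The paper ties neither count to the labels, so all 12 labelled arrays were used. The sources used here do not say which rats were littermates, so p-values measure the spread between these rats and take no account of a shared dam.

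miR-1 and miR-133 are made from shared precursor transcripts in heart and skeletal muscle, and miR-206 and miR-133b share another transcript that is largely restricted to skeletal muscle. Transcription of these genes is driven by myogenic factors such as MyoD, myogenin and MEF2. miR-1 and miR-206 are known to promote myoblast differentiation, while miR-133 is known to favour myoblast proliferation. A miRNA finds its messenger RNAs mainly through its seed, the bases near its 5′ end, and miRNAs with the same seed have largely overlapping targets.

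All 4 miRNAs were matched by name to RefSeq sequences on the rat build GRCr8. They are printed because they fall into 2 seed groups that cut across the 2 gene pairs. Each mature sequence runs 5′ to 3′ and capitals mark the seed.
miR-1: uGGAAUGUaaagaaguguguau
miR-206: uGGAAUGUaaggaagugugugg
miR-133a: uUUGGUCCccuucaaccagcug
miR-133b: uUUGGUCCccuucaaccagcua
miR-133a*: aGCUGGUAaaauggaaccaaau
miR-1 and miR-206 carry the same seed and differ at 3 of 22 positions, A11G, A21G and U22G, counted from 1 at the 5′ end with the miR-1 base first. miR-133a and miR-133b differ at 1 of 22 positions, G22A, with the miR-133a base first. How far the array probes tell such near-identical miRNAs apart was not tested. The GGAAUGU seed occurs in 3 of the 724 mature sequences of the RefSeq table, the third being miR-1b, which is not on the array and differs from miR-1 by G17A. The UUGGUCC seed occurs in 2. The last line is the opposite arm of the miR-133a hairpin, which the array also measured.

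The miR-1 gene Mir1 and the miR-133a gene Mir133a1 lie 2368 bases apart on chromosome 18, both on the minus strand and within the span of the protein-coding gene Mib1. Mature miR-1 lies at chr18:2160339-2160360 and mature miR-133a at chr18:2157886-2157907. Mir206 and Mir133b lie 3801 bases apart on chromosome 9, both on the plus strand and within the span of the long non-coding RNA gene LOC120094648. Mature miR-206 lies at chr9:30590747-30590768 and mature miR-133b at chr9:30594629-30594650. The miR-133a hairpin is shown because both of its arms were detected in all 12 muscles, with the miR-133a guide strand in capitals.
Mir133a1: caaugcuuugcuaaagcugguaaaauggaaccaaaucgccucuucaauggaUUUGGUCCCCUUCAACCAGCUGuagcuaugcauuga

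Each of the 2 slides carried 3 C and 3 HF rats, between 177 and 220 miRNAs were detected per array, and their summed signal ran from 331758 to 567426 signal units. Signals were made comparable by dividing them by a percentile (the 75th) taken over 162 miRNAs found in every muscle. This divisor lay between 864 and 1911, and the values it gives are called scaled signals. One HF rat on slide 1, H3, had the lowest scaled signal of miR-206, far below the other 11. It also had the highest of miR-1, at 136123 against at most 106415 in the others. This was not particular to these miRNAs, since of the 162, 64 were below the range of the other rats in H3 and 20 above it. Results that rest on this rat are given with and without it. In H3 miR-206 was low and miR-1 was high at the same time. The slow fibre miRNA miR-499, which is encoded in a slow myosin gene, was also low in H3, at a scaled signal of 366 against 4553 to 9137 in the other 11 rats, and miR-208b-3p was undetected in H3 and detected in the other 11. Of the miRNAs that mark skeletal muscle, the 4 described here and miR-499 were detected in all 12 rats, H3 included.

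miR-1 and miR-133b took the 2 highest signals in each of the 12 rats. Signals of different probes are not molar amounts, so shares and ranks describe the array signal and not the number of molecules. Whether the spots of these brightest miRNAs were saturated was not checked, which bears on the shares, folds and H3 values of miR-1 and miR-133b. Together the 4 miRNAs made up 39.8% ± 4.55 (SD, n = 11) of the summed signal without H3, and 53.4% in H3. The share of miR-1 ran from 11.8% to 18.3% in the 11 rats and was 29.7% in H3. That of miR-133b ran from 13.8% to 19.1% in the 11 rats and was 21.0% in H3. The share of miR-206 was 7.27% to 12.4% in the 11 rats and 2.04% in H3, where its signal ranked 7 instead of 3. miR-133a gave a far smaller signal, 0.286% to 0.576% in the 11 rats and 0.650% in H3, with ranks between 27 and 41. The scanner software put the error of a single value of these 4 at 7.21% to 8.76%, a figure for the scan that leaves out labelling and hybridisation.

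**Figure D1:**
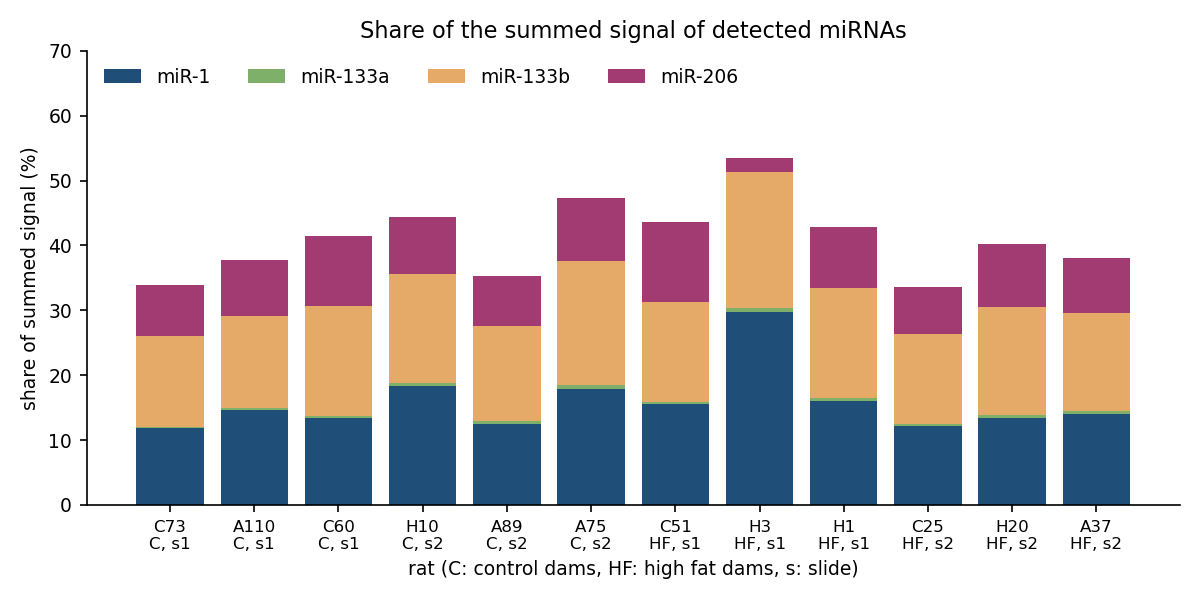
Share of the summed signal of detected miRNAs (%, vertical axis) taken by each of the 4 miRNAs in each rat (horizontal axis, with dam diet and slide). The H3 bar is the highest, at 53.4%, with the largest miR-1 segment (29.7%) and the smallest miR-206 segment (2.04%).

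The scaled signal of miR-1 had its lowest, median and highest values at 56260, 67352 and 106415 in C offspring. In HF offspring they were 51591, 70386 and 136123, the highest being H3. The groups overlapped, and the difference was 0.03 on the log2 scale (HF over C, 95% confidence interval -0.53 to 0.59, limma adjusted p = 0.978). Without H3 it was -0.14 (interval -0.63 to 0.35).

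The scaled signal of miR-133a, the partner of miR-1 on its transcript, was 1365, 1912 and 3416 (lowest, median, highest) in C offspring. In HF offspring it was 1534, 1956 and 2976. The highest rat was A75, a C rat, and the groups overlapped, with a log2 difference of 0.04 (interval -0.50 to 0.57, limma adjusted p = 0.977). Without H3 it was -0.07 (interval -0.60 to 0.46).

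For miR-133b the scaled signal was 63458, 77039 and 113448 (lowest, median, highest) in C offspring. It was 58477, 77544 and 100959 in HF offspring. The medians were nearly equal, the groups overlapped, and the log2 difference was -0.06 (interval -0.49 to 0.36, limma adjusted p = 0.925). Without H3 it was -0.13 (interval -0.56 to 0.31).

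For miR-206 the scaled signal was 34466, 44047 and 57293 (lowest, median, highest) in C offspring. It was 9354, 39912 and 60699 in HF offspring, where the lowest value was H3 and the highest was C51. The log2 difference was -0.40 (interval -1.23 to 0.44, limma adjusted p = 0.700), the widest interval of the 4, and it was -0.03 (interval -0.51 to 0.45) without H3.

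**Figure D2:**
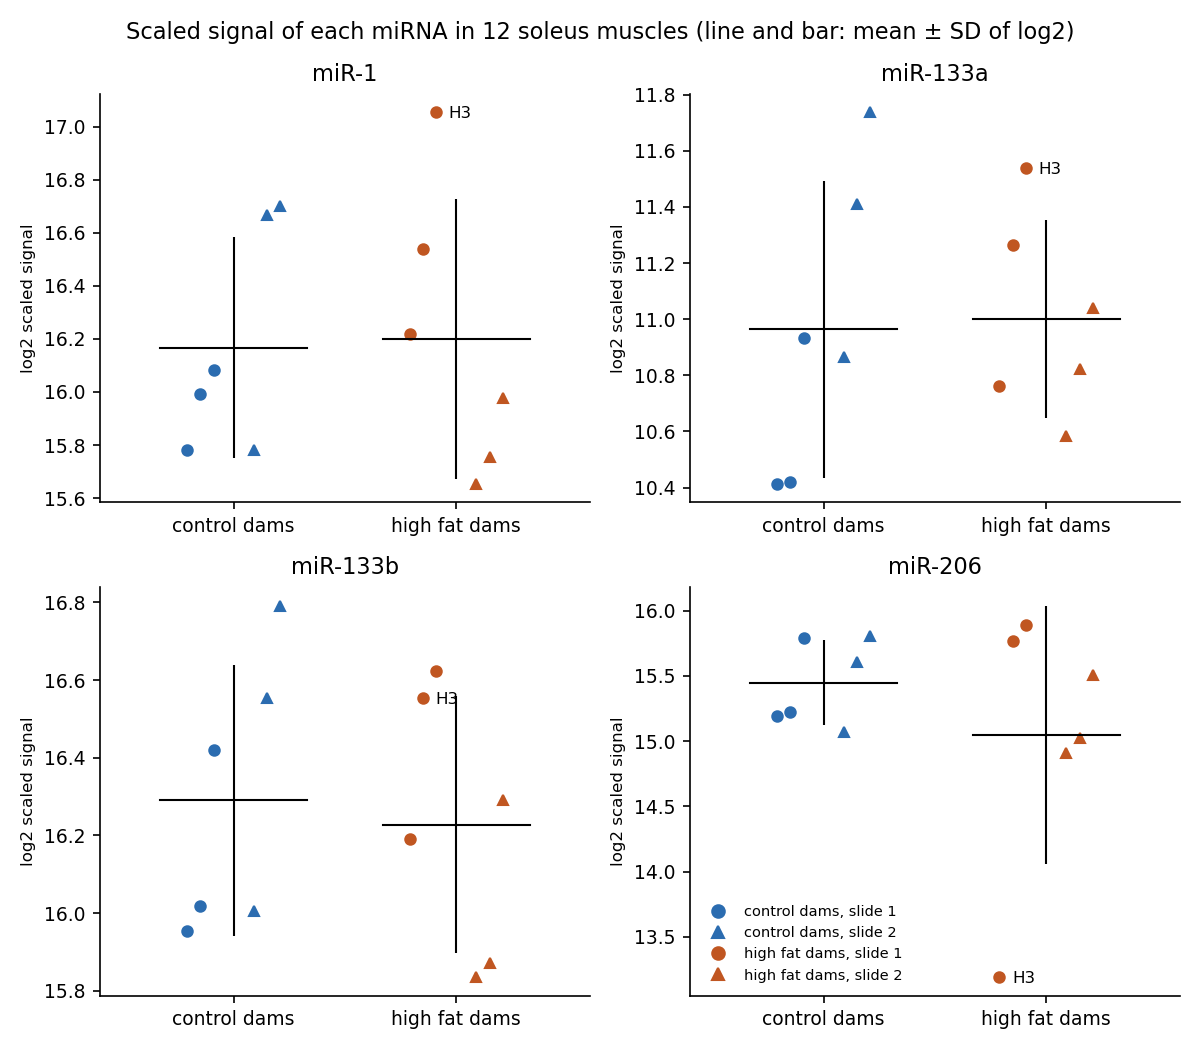
Log2 scaled signal of each miRNA (vertical axis, 1 panel per miRNA, with its own scale) in C and HF offspring, with circles for slide 1 and triangles for slide 2. Horizontal lines and bars are the mean ± SD of log2 over 6 rats. The groups overlap in every panel, and H3 (9354 in scaled signal units) lies far below the others for miR-206.

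Of the 4 miRNAs, 0 passed an adjusted p of 0.05 in limma, as did 0% of the 193 miRNAs tested, whose smallest adjusted p was 0.685. At an unadjusted p under 0.05, 0 of the 4 passed, against 0% of all tested miRNAs that were higher and 1.04% that were lower in HF offspring. Exact permutation of the diet labels among the 12 rats, two-sided, gave p = 0.916 for miR-1, 0.883 for miR-133a, 0.760 for miR-133b and 0.439 for miR-206. The intervals span folds of 0.693 to 1.51 for miR-1, 0.708 to 1.49 for miR-133a, 0.713 to 1.29 for miR-133b and 0.425 to 1.35 for miR-206, and changes within these bounds are compatible with the data. The mean of log2 values was higher in HF offspring for 2 of the 4 and lower for 2, with a median log2 difference of -0.01, while over all 193 miRNAs 39 were higher and 154 lower, with a median of -0.17. That overall median depends on the scaling and was 0.14 without any. Relative to it, miR-1 was at 0.20, miR-133a at 0.21, miR-133b at 0.11 and miR-206 at -0.23 on the log2 scale.

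The diet difference had opposite signs on the 2 slides for miR-1, miR-133a and miR-133b. On slide 1 the 3 HF rats had miR-1 signals from 76184 to 136123, all above the 3 C rats at 56260 to 69450. On slide 2 the HF rats were at 51591 to 64588, and the C rats at 56337 to 106415. The log2 difference of miR-1 was therefore 0.65 on slide 1 and -0.59 on slide 2. For miR-133a it was 0.60 and -0.52, and for miR-133b 0.33 and -0.45. miR-206 had -0.45 on slide 1, which became 0.43 without H3, and -0.35 on slide 2.

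A test of this contrast between slides was chosen after the values had been seen. It was the exact two-sided permutation test of the difference between the slides' diet effects, with diet labels exchanged within slides over 400 assignments. This exact test gave p = 0.015 for miR-1, p = 0.025 for miR-133a, p = 0.05 for miR-133b and p = 0.995 for miR-206. Adjusted over the 193 miRNAs, the p-values were 0.420 for the first 3 of these and 1 for miR-206. At an unadjusted p of 0.05 or less, 3 of the 4 had a higher diet difference on slide 1, against 8.81% of all tested miRNAs, and another 3.11% had a lower one. Without H3, 2 of the 4 (miR-1 and miR-133a) were at or under that level, against 12.4% of all tested, and the exact permutation p was 0.025 for miR-1, 0.04 for miR-133a, 0.085 for miR-133b and 0.065 for miR-206, which became 0.322, 0.322, 0.349 and 0.336 when adjusted over the 193 miRNAs. With 3 rats in each cell of this layout, the slide cannot be told apart from which rats happened to be placed on it.

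**Figure D3:**
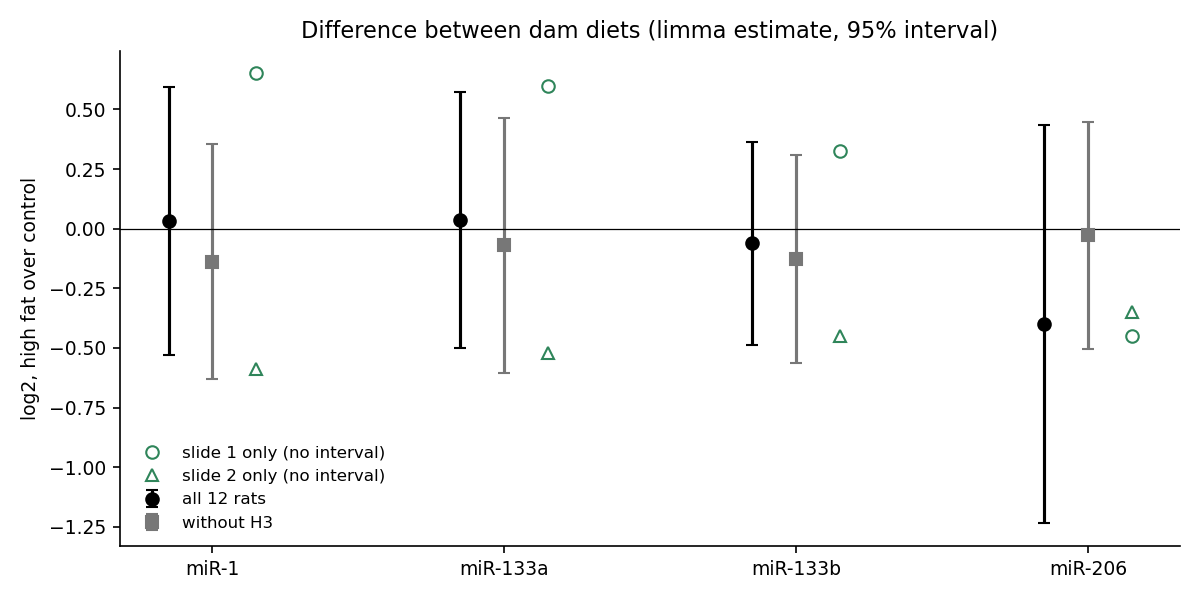
Log2 difference between HF and C offspring (vertical axis) for each miRNA, as the limma estimate with its 95% confidence interval over all 12 rats and without H3, and as plain means within slide 1 and slide 2. All intervals include 0, and the slide values lie on opposite sides of 0 for miR-1 (0.65 and -0.59), miR-133a and miR-133b.

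Ratios between the miRNAs within a rat are the same under any division of an array by 1 factor. Only their change from rat to rat is read, because a ratio of 2 probes is no molar ratio. The ratio of miR-206 to miR-1, which share a seed, was 0.480, 0.599 and 0.815 (lowest, median, highest) in C offspring. In HF offspring it was 0.0687, 0.600 and 0.797, and H3 at 0.0687 lay below the other 11 rats, which ran from 0.480 to 0.815. The ratio of miR-133b to miR-206, which share a transcript, was 1.55, 1.84 and 1.98 in C offspring. It was 1.23, 1.81 and 10.3 in HF offspring, and H3 was again the extreme at 10.3. For both ratios the 11 other rats stayed within a range of less than 2-fold.

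The ratio of miR-133a to miR-1, which share the other transcript, was 0.0210, 0.0272 and 0.0331 (lowest, median, highest) in C offspring, and 0.0219, 0.0278 and 0.0327 in HF offspring. H3, at 0.0219, was within the range of the other rats here. The ratio of miR-133b to miR-133a was 33.2, 40.1 and 48.6 in C offspring and 32.3, 38.1 and 43.1 in HF offspring. The groups overlapped for all 5 ratios compared, the fifth being the sum of the 2 miR-133 signals over the sum of miR-1 and miR-206. The exact two-sided permutation test for diet gave p-values from 0.411 to 0.974 over the 5, and from 0.958 to 0.974 after Benjamini-Hochberg adjustment over them.

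Slide 2 had a higher ratio of miR-133a to miR-1 than slide 1. It ran from 0.0210 to 0.0282 on slide 1 and from 0.0261 to 0.0331 on slide 2, a log2 difference of 0.38 (exact two-sided permutation test, p = 0.01, adjusted p = 0.05 over the 5 ratios). The ratio of miR-133b to miR-133a was lower on slide 2 by a log2 difference of -0.26 (exact permutation p = 0.03, adjusted p = 0.075). The scaled level of each miRNA by itself gave exact permutation p-values between slides of 0.535 for miR-1, 0.48 for miR-133a, 0.755 for miR-133b and 0.84 for miR-206.

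**Figure D4:**
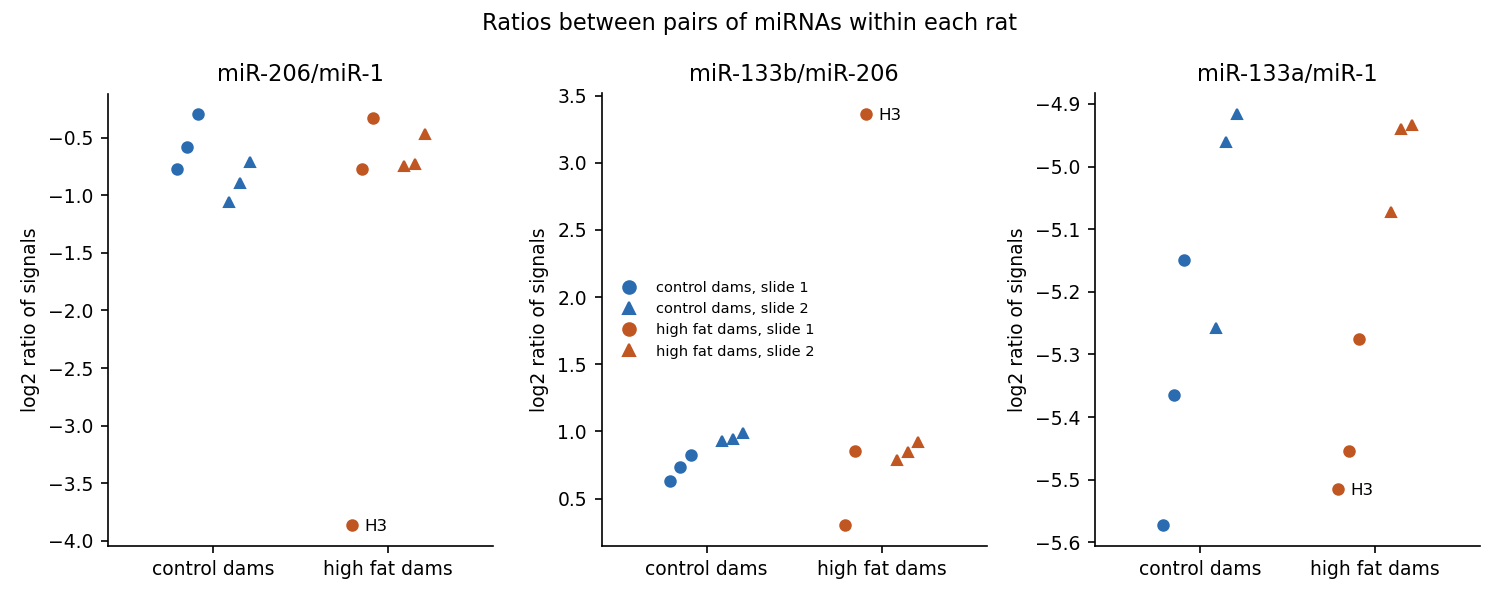
Log2 ratio of signals (vertical axis, 1 panel per pair) in each rat, by dam diet, with circles for slide 1 and triangles for slide 2. H3 is far from the other rats for miR-206/miR-1 (0.0687 before the log) and miR-133b/miR-206 (10.3) and within their range for miR-133a/miR-1 (0.0219).

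H3 was the highest rat for miR-1, at 136123, which is 2.09 times the median of the other 11 (65254). Its miR-206, at 9354, was 4.98-fold below the median of the others (46558), and their lowest value was 30841. Its miR-133a, at 2976, was 1.59 times the median of the others and below A75. Its miR-133b, at 96266, was 1.29 times the median of the others. In H3, miR-133b therefore lay in the upper part of its range while miR-206, from the same transcript, was the lowest of the 12 rats. These values are relative to the other miRNAs on the array. How far the miR-133b probe tells miR-133b from miR-133a was not tested, and its saturation was not checked.

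Other miRNAs also differed in H3. Of the 6 array entries for other muscle miRNAs, 4 were detected in at least 1 rat and 2 in H3, and the summed signal of this list was 401 in H3 against 4649 to 9313 in the other rats. That sum is nearly all miR-499. The myogenesis list, 20 miRNAs on the array that are known to act in muscle differentiation, summed to 70960 in H3 and to 99949 to 124257 in the others. Of its 16 miRNAs detected in H3, 8 were below the range of the other rats, 7 within it and 1, miR-378, above it. Of all 162 commonly detected miRNAs, 64 (39.5%) were below that range in H3, 78 within it and 20 (12.3%) above it. Signals of vessel miRNAs (miR-126, miR-143 and miR-145, all 3 detected in all rats) summed to 4863 in H3 and to 8811 to 12000 in the others. Those of red blood cells (miR-451 and miR-144, both detected in all rats) summed to 3295 in H3 and to 458 to 2636 in the others. Of these, miR-451 in H3 (3054) was above the other rats and miR-144 (241) within their range. The 4 leukocyte miRNAs, all detected in H3, summed to 1219 against 1411 to 1905, and the 3 fibroblast miRNAs to 2342 against 2469 to 7391. Of the leukocyte miRNAs, miR-150, at 304 in H3, was below the other 11 rats, and miR-142-3p, miR-142-5p and miR-223 were within their range. Of the fibroblast miRNAs, miR-214 was within that range, at 354. Of 7 epithelial miRNAs, 3 were detected in H3, of which miR-200a (12.2) and miR-200b (8.82) were detected in no other rat, while miR-141, miR-200c and miR-429 were detected in none. The nerve miRNAs miR-9 and miR-124 were undetected in H3. The part of these signals in the H3 values of miR-206 and miR-1 was not tested. In bulk muscle, fewer cells of a type and less RNA per cell cannot be told apart.

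Across the 12 rats miR-1, miR-133a and miR-133b varied together. Pearson's r on log2 scaled signals was 0.85 for miR-1 and miR-133a (Spearman's rho 0.78), 0.88 for miR-1 and miR-133b (rho 0.89), and 0.89 for miR-133a and miR-133b (rho 0.84). With 100000 permutations and Benjamini-Hochberg adjustment over the 6 pairs, p was 0.0010, 0.000660 and 0.000660 for r, and 0.00792, 0.00198 and 0.00351 for rho. The raw permutation p-values for r were 0.000500, 0.000220 and 0.000130. Leaving out the 2 rats farthest from the median of the first miRNA of each pair, A75 and H3, gave r of 0.76, 0.89 and 0.83. Ranked by rho among the 161 other miRNAs detected on all arrays, miR-133b was in place 5 and miR-133a in place 9 for miR-1. For miR-133a, miR-133b was in place 2. So other miRNAs followed miR-1 more closely than these did. miR-133a and miR-133b differ at 1 position, and how far their probes tell them apart was not tested. The points of one array share its RNA, its labelling and its scaling. Quantile normalization forces the signals of every array onto the same values. Under it r was 0.25 for miR-1 and miR-133a and -0.25 for miR-133a and miR-133b (adjusted permutation p = 0.459 for both). For miR-1 and miR-133b it was -1 by construction, because they exchange the same 2 top values.

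miR-206 did not follow this pattern over all 12 rats, with r of -0.23 with miR-1 (rho 0.44, adjusted permutation p = 0.745 for r), -0.10 with miR-133a (rho 0.23, p = 0.780) and 0.13 with miR-133b (rho 0.52, p = 0.780). This rests on H3, which was singled out after its values had been seen, so the p-values without it are only a guide. Among the other 11 rats r was 0.80 with miR-1, 0.61 with miR-133a and 0.85 with miR-133b (adjusted permutation p = 0.00444, 0.0451 and 0.00298), with rho of 0.87, 0.51 and 0.81 (adjusted p = 0.00276, 0.113 and 0.00606). Of the pairs that share neither seed nor transcript, miR-133a with miR-206 had the lowest r of the 6 pairs in the 11 rats and miR-1 with miR-133b the highest, at 0.92.

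Within slides the 3 pairs without miR-206 kept their sign. On slide 1, with 6 rats including H3, r was 0.94 for miR-1 and miR-133a (exact permutation p = 0.00417), 0.79 for miR-1 and miR-133b (p = 0.0569) and 0.95 for miR-133a and miR-133b (p = 0.0111). The pairs with miR-206 gave -0.68 with miR-1, -0.50 with miR-133a and -0.24 with miR-133b on slide 1. Among the 5 rats of slide 1 other than H3 these were 0.73, 0.80 and 0.75, given as descriptions with no test. On slide 2, which does not hold H3, r ran from 0.92 to 0.98 over all 6 pairs, each with the exact permutation p = 0.00139, the smallest that 6 rats allow.

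**Figure D5:**
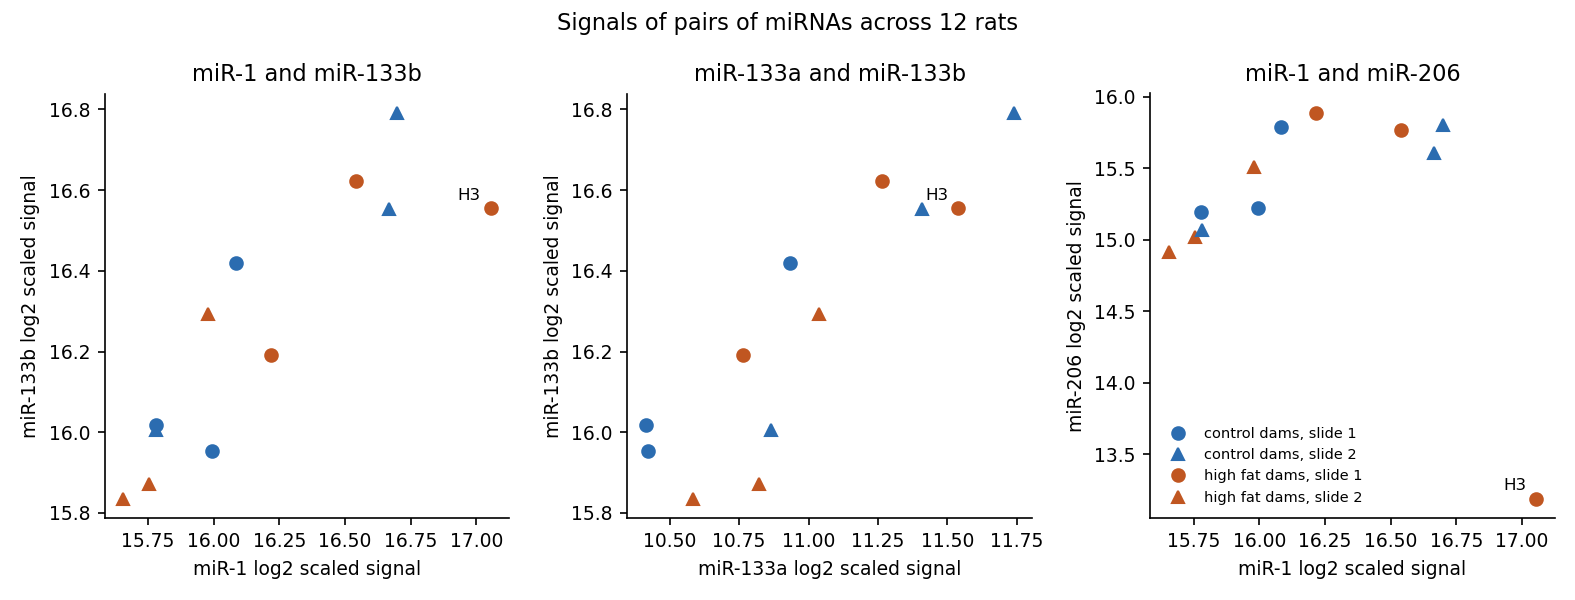
Log2 scaled signal of 1 miRNA against another (1 pair per panel) over the 12 rats, with colours for dam diet, circles for slide 1 and triangles for slide 2. The first 2 panels rise together (r of 0.88 and 0.89), and in the third H3 lies far below the other 11 rats, among which r is 0.80.

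The spread between rats differed among the 4. The SD of log2 scaled signal within groups was 0.48 for miR-1, 0.45 for miR-133a, 0.34 for miR-133b and 0.74 for miR-206, where the median of the 162 commonly detected miRNAs was 0.33. miR-206 was in place 8 of 162 from the widest. Without H3 its SD was 0.38 and its place 37, against a median of 0.29. Without H3 the 4 were closer to each other, at 0.39, 0.43, 0.34 and 0.38 in the order above.

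The miRNAs whose levels were most like each of these over the rats were ranked by Spearman's rho among 158 candidates detected on all arrays. The 4 miRNAs themselves were left out of the candidates, so miR-133b (rho 0.84 with miR-133a) is not among the names below. These are descriptions over 12 rats, and the points share arrays and scaling. For miR-1 they were miR-30a* (rho 0.97), miR-29c* (0.95) and miR-30a (0.94). For miR-133a they were miR-378 (0.94), miR-29c* (0.83) and miR-30b-5p (0.79). For miR-133b they were miR-30d (0.95), miR-30a (0.90) and miR-29c* (0.90). For miR-206 they were miR-128 (0.84), miR-196a (0.84) and miR-378* (0.80). These names rest in part on H3, since without it 1 of the 3 was kept for each of the 4. For miR-206, 1 was also kept with Pearson's r and with values centred within slides, and for miR-133a 1 with values centred within slides. The median rho of all candidates was 0.01 for miR-1, -0.05 for miR-133a, 0.15 for miR-133b and 0.15 for miR-206. In H3, miR-30a* was at 771, miR-29c* at 631, miR-30a at 9031, miR-30d at 1401 and miR-378 at 2554, each the highest of the 12 rats, and miR-128 at 362 and miR-196a at 306 were each the lowest. miR-30b-5p at 2937 and miR-378* at 598 lay within the range of the other rats.

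The opposite arm of the miR-133a hairpin, named miR-133a* on the array, was detected in all 12 rats. Its scaled signal was 3221, 4488 and 5472 (lowest, median, highest) in C offspring and 3216, 3867 and 5455 in HF offspring. The probe signal of miR-133a* was 1.31 to 3.11 times that of miR-133a, with a median of 2.11, and H3 had the lowest value. The diet difference of miR-133a* was -0.16 on the log2 scale (standard error 0.17, limma adjusted p = 0.722). Over the 12 rats its level and that of miR-133a had an r of 0.52 and a rho of 0.41, given as a description. miR-1* was dim and detected in 9 of 12 rats, at 9.60 to 35.1. miR-133b* was detected in 1 rat, A37, and miR-206* in none.

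Other muscle miRNAs were compared from fixed lists. The 4 other muscle entries tested were miR-499, miR-499*, miR-208* and miR-208b-3p, so they include both arms of the miR-499 hairpin. All but miR-499 were dim, with median scaled signals where detected of 19.2 (miR-499*), 41.8 (miR-208*) and 44.7 (miR-208b-3p). Of the 4, 0 passed an adjusted or an unadjusted p of 0.05 in limma. 3 of their means of log2 values were lower in HF offspring and 1 was higher, with a median log2 difference of -0.35. The higher one was miR-499*, which was undetected in H3. Without H3, 3 were higher and 1 lower, with a median of 0.03. The slow fibre miRNA miR-499 had a log2 difference of -0.65 (limma adjusted p = 0.700), with group means of 6409 in C and 5419 in HF offspring. Without H3 its log2 difference was 0.04. Of the 16 myogenesis miRNAs tested, 0 passed either level. Of these, 2 had a higher and 14 a lower mean of log2 values in HF offspring, with a median log2 difference of -0.18, where all tested miRNAs had -0.17. Without H3, 4 were higher and 12 lower, with a median of -0.10, where all tested miRNAs had -0.12.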

How the data were processed

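Soleus RNA of 12 rats (6 C, 6 HF) was measured on 1-colour Agilent 8x15K rat miRNA arrays (miRBase release 16). The authors deposited, for each array, the total signal intensity of each miRNA with its error and detection flag, with background subtracted and spots combined by the scanner software and no normalization between arrays. Their series table held the same intensity values (0 cells differed). An undetected miRNA is listed at 0.1. Saturation flags are not in the tables used here. The study's human arrays were not used here.

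After leaving out 22 control entries, 677 miRNAs remained. Array signals were divided by their 75th percentile, taken over the 162 miRNAs that every array detected, and brought back to signal units by 1 common factor. Values under 5.17 were set to that floor, and log2 was taken. Groups were compared with limma 3.58.1 in R 4.3.3 (HF minus C, no covariate) over 193 miRNAs that 6 or more arrays detected, and p-values were adjusted by Benjamini-Hochberg. The test was checked on simulated data. Single values used exact two-sided permutation tests that listed every assignment of the rats, in Python 3.11.15 with numpy 2.4.6. The number of arrays limits the precision.

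Named miRNAs were the 4 members, their star strands, fixed lists of other muscle, myogenesis and cell type miRNAs, and the 3 most like each member. The members and lists were chosen with earlier results of these data known. Alternatives covered scaling, floor, detection filter, blocks, array weights, the methods' t-test and each rat left out. Sequences came from RefSeq (GRCr8) by name.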

Additional observations from a re-analysis of the deposited data

Results flagged for a closer look

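Of 26 sets of 6 values examined for a single rat far from the rest, 5 had one, where chance gives about 1 in 20 (1.3 of 26), and 4 of the 5 were H3. The sets share rats and miRNAs, so they are not independent and the chance number is only a guide. Among HF offspring, the miR-1 share of H3 (29.7%) stood above the other 5 rats (12.2% to 16.1%). The miR-133a share of H3 (0.650%) stood above the other 5 (0.355% to 0.458%). The miR-133b to miR-206 ratio of H3 was 10.3 against 1.23 to 1.90, and the miR-206 to miR-1 ratio of H3 was 0.0687 against 0.586 to 0.797. The fifth was C51, whose ratio of both miR-133 signals to miR-1 plus miR-206 was 0.559, below 0.682 to 0.741 in the other 5.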

How the results depend on the processing

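No paired analysis was possible because the rat labels pair no samples. The unadjusted diet p was under 0.05 for 0 of the 4 miRNAs under all 27 alternatives, the methods' t-test being one of them. The small diet differences of miR-1, miR-133a and miR-133b changed sign under some alternatives, while that of miR-206 stayed below 0 under all 27. The sign for miR-206 rests largely on H3, without which the difference was -0.03. Blocking on the letter of the rat label, miR-1 was -0.16, miR-133a -0.10 and miR-133b -0.21, and with array weights miR-1 was -0.12 and miR-206 -0.08. Without scaling miR-1 was 0.34, miR-133a 0.35 and miR-206 -0.09. For miR-133b the log2 difference was 0.11 with the percentile over all miRNAs, 0.25 without scaling, 0.046 with the summed signal and 0.10 with the summed signal without the 4. Leaving out 1 rat gave -0.14 to 0.14 for miR-1, -0.072 to 0.19 for miR-133a, -0.14 to 0.038 for miR-133b and -0.57 to -0.03 for miR-206. It gave ratio differences of -0.069 to 0.068 for miR-133a/miR-1, -0.10 to 0.51 for miR-133b/miR-206, -0.60 to 0.11 for miR-206/miR-1 and -0.056 to 0.029 for both miR-133 over miR-1 plus miR-206, and of -0.15 to -0.04 for miR-133b/miR-133a. Quantile normalization turned the summed ratio to 0.069 and gave 0.27 for miR-133a/miR-1 and -0.27 for miR-133b/miR-133a. The sign changes of miR-133b/miR-206 and miR-206/miR-1 came without H3 and that of the summed ratio without C51.

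The correlations of miR-206 with 1 rat left out ran from -0.35 to 0.80 with miR-1, -0.29 to 0.61 with miR-133a and 0.0036 to 0.85 with miR-133b, the upper end being without H3. With the summed signal without the 4, miR-133b and miR-206 gave -0.30. Quantile normalization makes miR-1 and miR-133b exchange the same 2 top values, so its r is -1 by construction, and the r with miR-133a was 0.25 for miR-1 and -0.25 for miR-133b (adjusted permutation p = 0.459 for both). Chosen after the data were seen, unscaled values between slides gave log2 differences of 0.21 for miR-1, 0.33 for miR-133b, 0.54 for miR-206 and 0.59 for miR-133a, with an unadjusted exact permutation p = 0.04 for the last and p = 0.06 to 0.38 for the others.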
